A study of Mus musculus with 6 samples.

Results

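The vascular endothelial growth factor (VEGF) family was examined through its 10 genes: the ligands Vegfa, Vegfb, Vegfc, Vegfd and Pgf, the receptor tyrosine kinases Kdr, Flt1 and Flt4, and the neuropilins Nrp1 and Nrp2. The genes were taken by name, as the probe sets that the array annotation assigns to each of them and to no other gene. All 10 were measured, by 25 probe sets among 35067 with a single gene, and they are 10 of 18194 genes measured. The RNA came from myospheres, which are cell clusters cultured from the hind-leg muscle of male Balb/c mice, after cell sorting for the surface antigen Sca1. Culture lasted 4 days in a medium labelled neurocult with LIF, B27, EGF and an additive written as bf6f, and the cells were at passage 1. Each of replicates 1 to 3 was measured on a pair of Affymetrix chips, MOE430A and MOE430B, giving 6 arrays. All are of 1 kind of sample, with no second condition. The labels do not say whether the replicates were separate cultures or animals, and the series text speaks of 1 sample, so the spread between arrays may be technical.

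VEGF ligands are secreted dimers that bind receptor tyrosine kinases, best known from endothelial cells, where they drive the growth and permeability of blood and lymph vessels. Kdr is the main signalling receptor for Vegfa, Flt1 binds Vegfa, Vegfb and Pgf with high affinity and is often viewed as a decoy, and Flt4 is the receptor of Vegfc and Vegfd. Neuropilins lack a kinase of their own and act as co-receptors, both for VEGF ligands and for class 3 semaphorins. In skeletal muscle the family is known for the control of capillary growth, with muscle fibres and stromal cells as sources of Vegfa.

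The values are MAS5 signals, the brightness of a probe set on a linear scale. Each array received its own background limit, the 95th percentile of probe sets for genes of other tissues, such as odorant receptors and keratin-associated proteins. In the order of replicates 1, 2 and 3, the limit was 818.6, 783.5 and 821.3 for MOE430A, and 3294, 2952 and 2578 for MOE430B. Probe sets brighter than the limit on all 3 arrays are called above it, and a gene is called above it through any such probe set. Of the 152 reference probe sets on MOE430A 4 passed this rule, and of the 42 on MOE430B 2 did. The limit was drawn from these same sets, so these counts are not a test of the rule. Between replicates, log2 signals correlated at 0.916 to 0.922 over the probe sets of MOE430A and at 0.749 to 0.773 over those of MOE430B, where probe sets are not independent replicates. The control sets for Gapdh read 11.9 to 16.5 times as much at the 3' end as at the 5' end on MOE430A, and those for actin 8.55 to 11.4 times, and the part of this loss of 5' signal in the values below was not tested.

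Of the 10 genes 6 were above the limit: the ligands Vegfa and Vegfd, the receptors Kdr and Flt4, and both neuropilins. Vegfb, Vegfc, Pgf and Flt1 were not. The share over all measured genes was 36.1%, and it depended on how many probe sets a gene had. Among genes with 1 probe set 1 of 3 members was above, against 22% of all such genes. Among genes with 2 probe sets it was 2 of 2, against 42.2%, and among genes with 3 or more it was 3 of 5, against 59.1%. Counted by probe set, 10 of 18 were above on MOE430A, against 35.6% of all, and 2 of 7 on MOE430B, against 13.4% of all. With so few members these counts are a description and carry no test. The best probe set of each gene, read on its lowest array, reached a median of 1.56 times the limit over the members, against 0.579 over all measured genes. Among genes with 1 probe set the members were lower, with a median of 0.12 against 0.274. With 2 sets the medians were 2.08 against 0.76, and with 3 or more 3.29 against 1.32.

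**Figure D1:**
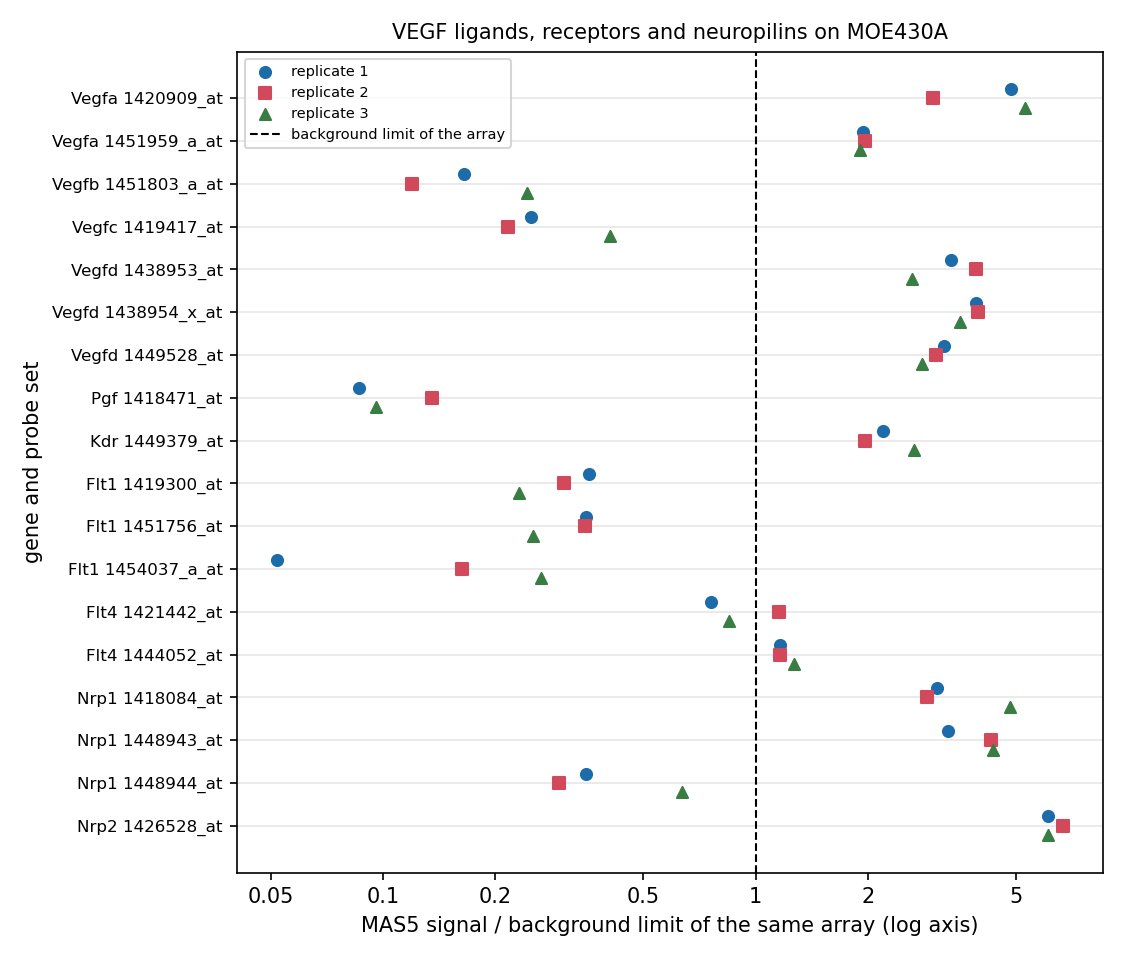
MAS5 signal of each MOE430A probe set divided by the background limit of the same array (horizontal log axis), for the 18 probe sets of the 10 genes; circles, squares and triangles are replicates 1, 2 and 3 and the dashed line is the limit. The sets of Vegfa, Vegfd, Kdr and Nrp2 lie right of the line on every array, those of Vegfb, Vegfc, Pgf and Flt1 left of it on every array, and those of Flt4 and Nrp1 fall on both sides.

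Vegfa, the main angiogenic ligand and a known target of hypoxia signalling, was above the limit by both of its probe sets. The set 1420909_at gave 3965, 2345 and 4327 in replicates 1, 2 and 3, or 4.84, 2.99 and 5.27 times the limit. The set 1451959_a_at, which by its ID matches several transcripts of the gene, gave 1590, 1542 and 1563. Replicate 2 was thus the lowest for both sets, but by very different amounts: the highest and lowest arrays were 0.88 apart on the log2 scale for 1420909_at and 0.04 apart for 1451959_a_at. Each of these sets exceeded all 152 reference probe sets of the chip on every array.

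Vegfd, a lymphatic growth factor that was first described in mouse as a Fos-induced gene of fibroblasts, was above the limit by 3 of 3 probe sets. The set 1449528_at gave 2624, 2384 and 2295 in replicates 1, 2 and 3. The set 1438953_at gave 2740, 3064 and 2157. The _x_at set 1438954_x_at, whose probes can match other transcripts, gave 3200, 3102 and 2903. All of these readings lay between 2.63 and 3.96 times the limit, and replicate 3 was the lowest for each set. Of these sets 1449528_at has an accession in the annotation, and 1438953_at and 1438954_x_at have none.

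Vegfc, the other ligand of Flt4, was not above the limit on either chip. Its set 1440739_at gave 3041, 3212 and 2358 on MOE430B, or 0.923, 1.09 and 0.915 times the limit of each array. The _x_at set 1439766_x_at gave 3228, 1879 and 2186 on the same chip, or 0.98, 0.637 and 0.848 of the limit. On MOE430A the set 1419417_at read far lower against its own limit, at 0.25, 0.216 and 0.408 of it. Neither MOE430B set has an accession in the annotation, whereas the MOE430A set has one. Vegfc therefore had 1 reading of 9 above a limit, from replicate 2.

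Vegfb and Pgf, ligands that bind Flt1 but not Kdr, each had 1 probe set, on MOE430A, and neither came near the limit. Vegfb gave 135.2, 93.7 and 199.5 in replicates 1, 2 and 3, at most 0.243 of the limit. Pgf, the placental growth factor, gave 70.6, 106.2 and 78.5, at most 0.135 of it. Pgf exceeded 39 to 63 of the 152 reference probe sets and Vegfb 59 to 71, so both read under the middle of that background. Falling under the limit does not show that a gene is silent, and the Vegfb set is an _a_at set with no second set to compare it with.

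The promoter windows of 3 ligands are shown because the array readings set Vegfa and Vegfd apart from Vegfb. Vegfc and Pgf were not above the limit either, and their windows are not shown. Each is the 250 bases before the start of the gene in RefSeq (mouse assembly GRCm38.p6), 5' to 3' on the strand of the gene. Capitals mark the GC box GGGCGG and the TATA box TATAAA, on either strand.
Vegfa (chr17:46032378-46032627, minus strand): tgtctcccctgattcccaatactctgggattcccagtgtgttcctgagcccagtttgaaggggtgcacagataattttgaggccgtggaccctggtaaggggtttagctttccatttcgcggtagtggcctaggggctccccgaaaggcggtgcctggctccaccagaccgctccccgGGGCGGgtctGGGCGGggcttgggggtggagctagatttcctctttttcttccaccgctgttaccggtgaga
Vegfd (chrX:164373272-164373521, plus strand): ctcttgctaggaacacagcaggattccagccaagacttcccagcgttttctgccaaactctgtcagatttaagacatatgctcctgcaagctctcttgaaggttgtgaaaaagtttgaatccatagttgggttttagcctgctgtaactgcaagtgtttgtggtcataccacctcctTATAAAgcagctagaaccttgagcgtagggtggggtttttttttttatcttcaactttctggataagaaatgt
Vegfb (chr19:6987652-6987901, minus strand): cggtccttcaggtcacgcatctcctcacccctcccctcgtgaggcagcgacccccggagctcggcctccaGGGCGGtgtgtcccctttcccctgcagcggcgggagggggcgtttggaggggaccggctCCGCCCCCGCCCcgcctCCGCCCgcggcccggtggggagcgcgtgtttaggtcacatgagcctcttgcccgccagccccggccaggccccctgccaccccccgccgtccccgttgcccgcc
Vegfa had 2 GC boxes, Vegfd none and Vegfb 4, and of these 3 windows only that of Vegfd held a TATA box. Its GC content was 42.4%, against 59.2% for Vegfa and 76.4% for Vegfb, with a median of 52.4% over all promoters. The Vegfc window held 2 GC boxes, and Pgf windows 1 and 2 held 2 and 0. A link between these motifs and the array readings was not tested. Among the 12 windows of the 10 genes, 10 held a GC box, against 32.7% of 32851 promoters, and 2 held a TATA box, those of Vegfd and Flt1, against 12.4%. Apart from that of Vegfd, every member window had a GC content over the median of all promoters, at 59.2% to 76.4%. The part of GC content in the GC box count was not tested. The AP-1 letters TGANTCA were in 0 of the 12 windows, against 6.75% of all promoters, and the hypoxia response core ACGTG in 1, a second Vegfa window, against 16.6%. Both strands were searched, no motif contains another, GC boxes can overlap each other, and a match is not a shown binding site.

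Kdr, the main VEGF receptor of blood vessel endothelium, was above the limit by its only probe set. The set 1449379_at gave 1797, 1540 and 2187 in replicates 1, 2 and 3, or 2.19, 1.97 and 2.66 times the limit. All 152 reference probe sets were lower on each array. Replicate 2 was the lowest, as for Vegfa, and replicate 3 the highest.

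Flt4, the receptor of Vegfc and Vegfd, lay close to the limit, and its probe sets were split. The set 1444052_at gave 953.1, 912.9 and 1039 in replicates 1, 2 and 3, or 1.16, 1.17 and 1.27 times the limit. The set 1421442_at gave 622.1, 904.8 and 694.8 and was above the limit in replicate 2 alone. The first of these has no accession in the annotation. Of the 152 reference probe sets, 3 to 5 read as high as 1444052_at or higher, depending on the array. With the 99th percentile as limit Flt4 was not above, at 0.743 of it.

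Flt1, which binds Vegfa, Vegfb and Pgf, was not above the limit by any of its 4 probe sets. On MOE430A the set 1419300_at gave 291.8, 239.7 and 189.9, and 1451756_at gave 286.9, 272.5 and 208.1. The set 1454037_a_at gave 42.4, 128 and 218.6, the widest relative range of any member set, at 2.37 on the log2 scale. On MOE430B the set 1440926_at gave 889.1, 1422 and 897.7. The readings lay between 0.0518 and 0.482 of the limit, so no array came near it. Of the ligands of Flt1, Vegfa was above the limit and Vegfb and Pgf were not, and of those of Flt4, Vegfd was above it and Vegfc was not.

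Nrp2, a co-receptor for Vegfc and Vegfa and a receptor for semaphorin 3F, was above the limit on both chips, by 3 of 4 probe sets. On MOE430A the set 1426528_at gave 4980, 5240 and 5002, or 6.08, 6.69 and 6.09 times the limit. On MOE430B the set 1435349_at gave 18243, 14187 and 14508, and 1456778_at gave 11190, 8256 and 7521. The fourth, 1447343_at, gave 877.4, 2109 and 750.5 and was under the limit on every array. It is also the one Nrp2 set without an accession in the annotation. Over all members, 3 of 6 sets without an accession were above the limit, and 9 of 19 with one. Over all genes the share of sets above was 35.6% on MOE430A and 13.4% on MOE430B. The promoter of Nrp2 is shown as that of the 1 member above the limit on both chips, in the same form as the ligand windows and with the same letters in capitals.
Nrp2 (chr1:62703067-62703316, plus strand): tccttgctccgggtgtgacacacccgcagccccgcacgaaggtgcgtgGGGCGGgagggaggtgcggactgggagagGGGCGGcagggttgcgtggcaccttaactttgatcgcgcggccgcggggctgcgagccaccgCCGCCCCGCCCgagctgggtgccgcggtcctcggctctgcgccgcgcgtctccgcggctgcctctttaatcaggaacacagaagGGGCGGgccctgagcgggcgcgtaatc
It held 5 GC boxes, 2 of which overlap by 1 base, and no TATA box, with a GC content of 72.4%.

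Nrp1, a co-receptor for Vegfa and a receptor for semaphorin 3A, was above the limit by 2 of 4 probe sets. The set 1448943_at gave 2690, 3350 and 3552 in replicates 1, 2 and 3, and 1418084_at gave 2512, 2254 and 3952. They read 2.88 to 4.81 times the limit. The set 1448944_at gave 287.6, 232.8 and 520.7, under the limit on every array, although the annotation gives the same transcript accession to all 3 Nrp1 sets of MOE430A. On MOE430B the set 1457198_at gave 2174, 1471 and 1921, at most 0.745 of the limit. Replicate 3 was the highest for each of the 3 MOE430A sets, but not for the MOE430B set, where replicate 1 was.

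**Figure D2:**
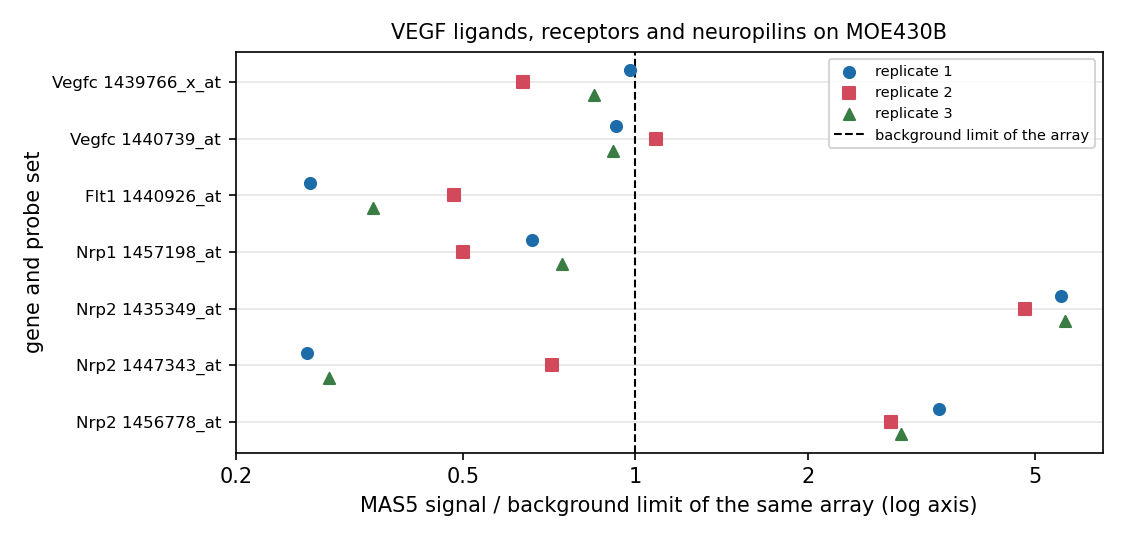
MAS5 signal of each MOE430B probe set divided by the background limit of the same array (horizontal log axis), for the 7 member probe sets on that chip; circles, squares and triangles are replicates 1, 2 and 3 and the dashed line is the limit. The Nrp2 sets 1435349_at and 1456778_at lie right of the line, at 2.8 to 5.63 times the limit, and the Vegfc set 1440739_at, at 0.915 to 1.09 times the limit, falls on both sides of it.

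Within each chip the member probe sets above the limit varied about as much between arrays as other probe sets above it. Their SD on the log2 scale had a median of 0.156 over 10 sets on MOE430A, against 0.188 over 7254 sets of that chip, and was 0.201 and 0.3 for the 2 sets on MOE430B, against a median of 0.227 over 1968. On MOE430A the extremes were both Vegfa: 1451959_a_at at 0.022, under all but 0.979% of the sets above the limit, and 1420909_at at 0.48, over 96.9% of them. Nrp1 1418084_at was also wide, at 0.43, over 94.4%. Replicate 2 was the lowest for 6 of the 12 member sets above the limit, replicate 3 for 4 and replicate 1 for 2. The replicates did not keep 1 order across the family, since replicate 3 was the highest for Kdr and Nrp1 and the lowest for Vegfd.

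**Figure D3:**
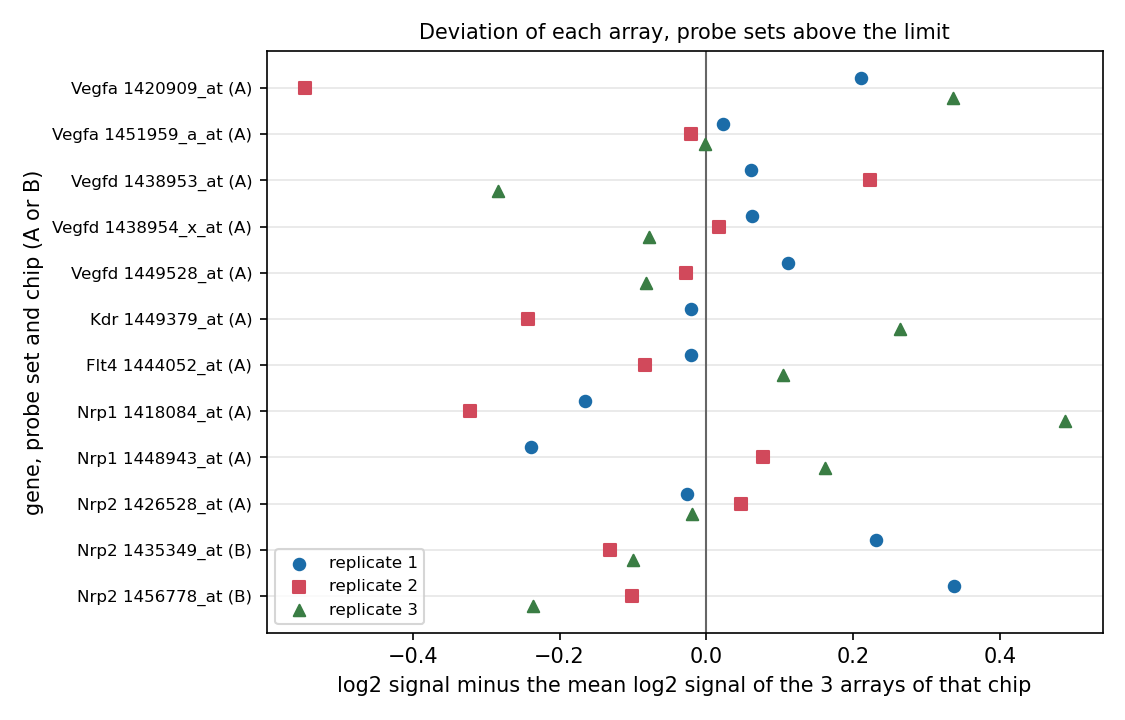
Log2 signal of each array minus the mean over the 3 arrays of that chip, for the 12 member probe sets above the limit; circles, squares and triangles are replicates 1, 2 and 3, and A or B names the chip. Replicate 2 of Vegfa 1420909_at, at -0.55, lies farthest from 0, while the points of Vegfa 1451959_a_at and Nrp2 1426528_at lie within 0.05 of it.

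Differences between replicates could be tested only for Nrp2, the 1 member with probe sets above the mean limit on both chips. The test sets the replicates against the disagreement between the chips. Of 605 genes in it 6 (0.992%) passed with limma (adjusted p under 0.05 in its moderated F-test), with 64 under 0.05 before adjustment, and Nrp2 did not. Its highest and lowest replicates, 1 and 3, were 0.22 ± 0.24 (SE) apart on the log2 scale (limma F-test, adjusted p = 0.95). The p-value is for all 3 replicates together, and the SE takes no account of picking this pair. The chips disagreed on the order: replicate 1 was the highest for both MOE430B sets and replicate 2 for the MOE430A set. With no filter on low values Nrp1, Vegfc and Flt1 also entered, and their limma adjusted p was 0.942, 0.962 and 0.962 among 3807 genes.

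Genes that act with the family were counted on lists by role, and these lists were drawn up with earlier results of these data known. Of genes that carry signals from VEGF receptors 17 of 26 measured were above the limit, against 36.1% of all genes. Of these 26 genes 16 had 3 or more probe sets, and 10 of the 16 were above, against 59.1% of all such genes. With 1 probe set per gene 14 of the 26 were above, against 34.4% of all, and without probe sets of shared sequence 12 of 24, against 30.4%. Plcg1, the phospholipase recruited by Kdr, gave 8900 ± 1557 (SD, n = 3) on MOE430B. The protein kinases C Prkca and Prkcb gave 11209 ± 1417 on MOE430B and 4674 ± 708 on MOE430A, or 3.3 and 4.93 times the limit on their lowest arrays. The kinase subunit Pik3ca gave 1412 ± 266, and 1 of its 6 probe sets was above. Nos3, the endothelial nitric oxide synthase, gave 598 ± 92.4 and was not above, nor were the kinase Yes1 and the adaptor Shb. Most genes of this list serve many receptors and are not particular to the VEGF family.

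Of genes that process VEGF ligands or bind them in the matrix, 12 of 16 were above the limit, against 36.1% of all genes. By probe sets per gene it was 4 of 7 with 1 set, 5 of 6 with 2 and 3 of 3 with 3 or more, against 22%, 42.2% and 59.1% of all such genes. The proprotein convertases Furin, Pcsk5 and Pcsk7, which can cleave the precursors of Vegfc and Vegfd, gave 5477 ± 142, 12399 ± 705 and 1954 ± 60.7 (SD, n = 3), that of Pcsk5 on MOE430B. On their lowest arrays these 3 genes read 6.5, 3.79 and 2.32 times the limit. Pcsk5 was above by 1 of its 5 probe sets. Ccbe1, a secreted cofactor of Vegfc processing, gave 24203 ± 2614 on MOE430B by 1 of its 4 probe sets. Adamts3, the protease that Ccbe1 assists, was not above, at 1269 ± 280 on the same chip, and neither were Pcsk6 and Ccn2.

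Of regulators of Vegfa transcription and mRNA, 15 of 19 were above the limit, 7 of 9 among those with 3 or more probe sets, against 36.1% of all genes and 59.1% of all with 3 or more. Hif1a, the oxygen-regulated factor that induces Vegfa, gave 21824 ± 324 (SD, n = 3). Epas1 and Arnt, further subunits of hypoxia-inducible factors, gave 3848 ± 267 and 4153 ± 369 on MOE430B, 1.19 and 1.37 times the limit on their lowest arrays. Arnt was above by 1 of its 5 probe sets. Hif3a, another alpha subunit, gave 1622 ± 525 by 1 of its 6 probe sets. Arnt2, Sp3 and the coactivator Ppargc1a were not above. Several of these genes lay near the limit: with the 99th percentile in its place 8 of the 19 were above, against 27% of all genes.

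Of the semaphorins and plexins that partner neuropilins, 5 of 13 were above the limit, against 36.1% of all genes. Sema3a, the ligand of Nrp1, gave 2952 ± 407 (SD, n = 3), and Sema3c, which can use both neuropilins, gave 5830 ± 113 on MOE430B. Against the limit on their lowest arrays Sema3a read 3.33 times and Sema3c 1.8 times. The plexins Plxna1 and Plxna2, which transmit semaphorin signals, gave 5345 ± 337 and 3561 ± 539 on MOE430B. Sema3a was above by 1 of its 3 probe sets and Plxna2 by 1 of its 4. Sema3b, Sema3d and Sema3e were not above. Of 10 genes known to respond to VEGF in endothelium, 3 were above, against 36.1% of all genes. They were the immediate early gene Nr4a1 at 15301 ± 2980, the peptide ligand Apln at 2010 ± 57.4 and the protease Adamts9 at 5593 ± 541 on MOE430B. Their lowest arrays read 16.6, 2.4 and 1.85 times the limit. Rcan1, Egr3 and Dll4 were not above.

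Because Kdr and Flt4 are used as endothelial markers, markers of other cells found in muscle are given beside them. Of 20 endothelial markers other than Kdr and Flt1, 8 were above the limit, against 36.1% of all genes. In the whole list of 22, 6 of 13 with 1 probe set were above, against 22% of all such genes. With 2 sets it was 2 of 6, against 42.2%, and with 3 or more 1 of 3, against 59.1%. The 8 other than Kdr include Esam, Egfl7, Robo4 and Cldn5, at 1305 ± 399, 1281 ± 134, 931 ± 83.1 and 1297 ± 268 (SD, n = 3). Egfl7 was above by 1 of its 4 probe sets. Pecam1, an adhesion molecule of all endothelium, gave 164 ± 81.3, Cdh5, the cadherin of endothelial junctions, 908 ± 199.6 and the receptor Tek 469 ± 91.1, and none of these 3 was above. Cdh5 lay near the limit, at 735.5, 861.8 and 1127 in replicates 1, 2 and 3, and exceeded it in replicates 2 and 3. Clec14a, chosen after its values were seen, gave 7221 ± 1143. The summed signal of the whole endothelial list, Kdr and Flt1 included, was 24538 to 28563 over the arrays of MOE430A and 15034 to 18155 over those of MOE430B. With the 99th percentile as limit 4 of the 22 were above, against 27% of all genes. With 2 of 3 arrays it was 12, against 42.2%, and without replicate 1 also 12, against 38.6%. With the array median as limit 11 were above, against 53.8%. No marker was at 0, and Tie1 and Vwf were the lowest against the limit, at 25.5 ± 10.8 and 26.8 ± 16.2. The part of endothelial cells in the Kdr and Flt4 signals was not tested. In RNA from a whole culture, few cells with much of a transcript and many cells with little of it cannot be told apart.

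Of lymphatic markers other than Flt4, 1 of 4 was above the limit, against 36.1% of all genes. It was Pdpn, at 61827 ± 9545 (SD, n = 3), which fibroblasts also express. Prox1, the factor that defines lymphatic endothelium, gave 437 ± 93, and Lyve1, a hyaluronan receptor, 343 ± 62.7, both under the limit. Their list summed to 54634 to 73729 on the MOE430A arrays, nearly all of it Pdpn, and to 2548 to 4044 on MOE430B.

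Markers of mesenchymal progenitors were above the limit for 10 of 10 genes, among them Pdgfra, the receptor that defines fibro-adipogenic progenitors, at 12733 ± 791 (SD, n = 3), Cd34 at 10749 ± 740.4, Thy1 at 3639 ± 435 and the proteoglycan Dcn at 148494 ± 7522. The gene of the sort antigen, Ly6a, was not analysed here. Of myogenic markers 0 of 7 were above, against the same 36.1%: Pax7 gave 304 ± 11.9, Myf5 76.8 ± 32.4 and Myod1 914 ± 267. That count rests on the rule of 3 arrays: Myod1 and Myog, factors of muscle differentiation, exceeded the limit on 2 of 3 arrays each. Without replicate 1 or without replicate 2, 1 of the 7 was above, against 38.6% and 38.5% of all genes. With the array median as limit 2 of the 7 were, against 53.8%. Pericyte and smooth muscle markers were above for 5 of 10, macrophage and leukocyte markers for 4 of 8 and neural and Schwann markers for 2 of 6, against 36.1% of all genes. Rgs5, Acta2, Pdgfrb and Abcc9 were among the first, Csf1r, Adgre1, Cd14 and Laptm5 were the second, and Nes and Sox10 the third. These counts moved with the settings: without probe sets of shared sequence they were 1 of 9, 2 of 7 and 1 of 5, against 30.4% of all genes. The pericyte count was 8 without replicate 2, against 38.5% of all genes, and the macrophage count 6 without replicate 1, against 38.6%. With 2 of 3 arrays these counts were 8 and 6, against 42.2% of all genes. The macrophage list summed to 15128 to 18401 and the pericyte list to 17562 to 26985 over the arrays of MOE430A, and the part of these cells in the VEGF family values was not tested.

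**Figure D4:**
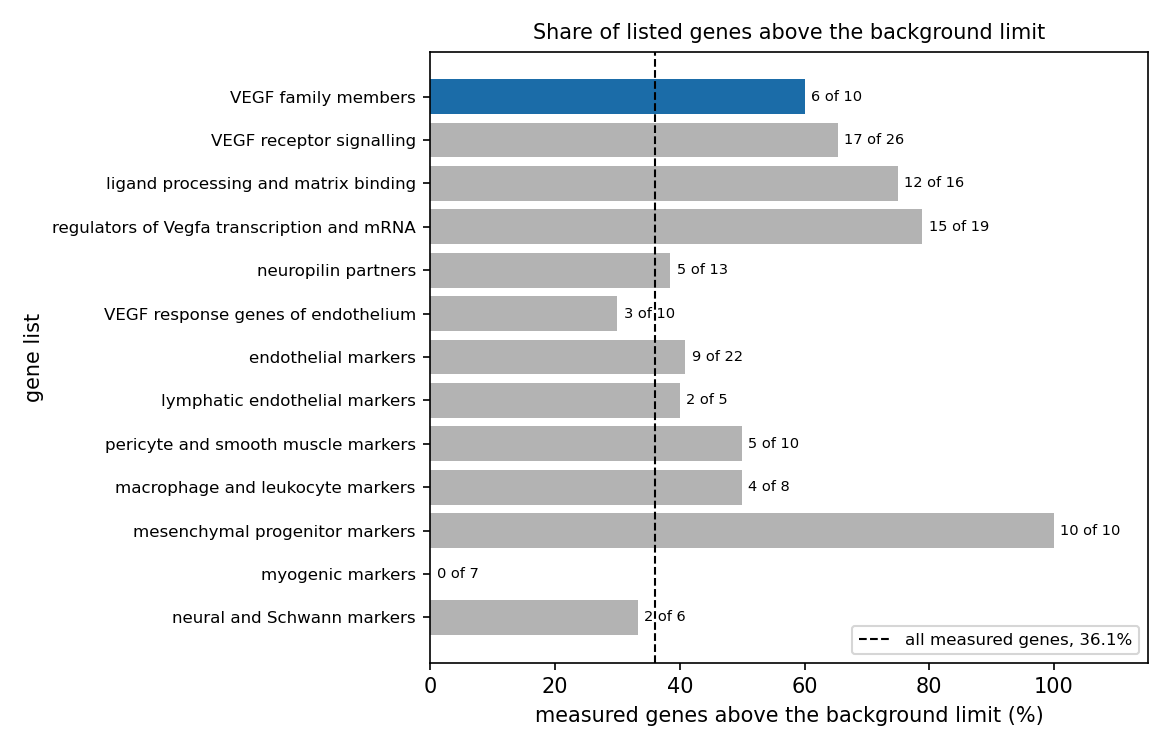
Percent of the measured genes of each list that were above the background limit (horizontal axis, from 0), with the VEGF family on top and the number of genes beside each bar; the dashed line is the 36.1% of all measured genes. The VEGF response, endothelial and lymphatic bars include the member genes Kdr, Flt1 and Flt4, and the bars run from 0 of 7 myogenic markers, 2 of which exceeded the limit on 2 of 3 arrays, to 10 of 10 mesenchymal progenitor markers. The dashed line is not matched to the number of probe sets per gene.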

How the data were processed

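Expression was measured in Sca1-enriched mouse muscle myospheres on 3 MOE430A and 3 MOE430B arrays. The authors deposited MAS5 signal intensity per probe set, per the submitters' processing notes; version and scaling target are not given in the sources used here. Without the top and bottom 2% of probe sets, every array averaged 1500, so each was scaled alone. Calls and ratios use each array's own limit, while SDs, differences between arrays, the replicate test and list sums rest on that scaling. Scanner information files served only to read array settings. Gene symbols were brought up to date by Entrez number (RefSeq, GRCm38.p6), which matched 20364 of 20393 single-gene probe sets on MOE430A and 14499 of 14674 on MOE430B; 691 and 245 with several genes and 1606 and 7656 with none were left out.

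The limit and call rule stand above. The replicate test used limma 3.58.1 (R 4.3.3; log2 signal, intensity trend, chip as covariate, Benjamini-Hochberg over all genes in the fit), on each gene's mean log2 signal over probe sets whose mean exceeded the mean limit; the script was tested on simulated data. All else was done in Python 3.11.15 with numpy 2.4.6, pandas 2.3.3 and matplotlib 3.10.9. A list gene's printed level is that of its probe set with the highest ratio to the limit on its lowest array, above it or not. Other sets of the same gene can be under the limit. By rule, all members were named, and of each list up to 4 genes above and 3 not above, in list order; Clec14a, Tie1 and Vwf were chosen after their values were seen. Members and lists were chosen with earlier results of these data known. Of 167 listed genes 10 were not analysed here. The precision is limited by the number of arrays, 3 per chip.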

Additional observations from a re-analysis of the deposited data

How the results depend on the processing

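Over 10 alternatives (the 99th percentile or the array median as limit, receptor families alone as reference, no probe sets of shared sequence, 1 probe set per gene, 2 of 3 arrays, MOE430A alone, and each replicate left out) the members above the limit numbered 5 to 7, against 6 as reported: 5 with the 99th percentile, where 27% of all genes were above, and 7 with the array median, where 53.8% were. Leaving out 1 replicate gave 6 each time. Of 99 gene calls 97 kept their side: Flt4 was lost with the 99th percentile, at 0.743 of the limit, and Vegfc was gained with the array median, at 2.5 times it. Vegfb dropped out of measurement without probe sets of shared sequence. Receptor families alone left 13 reference probe sets on MOE430B, so the limit there was that of MOE430A moved by 1.86 on the log2 scale, the median difference of 100 probe sets on both chips. Of 120 counts for the other lists 103 stayed within 1.5 times; pericyte markers, for example, were above for 1 of 9 genes without shared sequence. The median SD of members above the limit was 0.206 on the log2 scale and 0.208 with array median centring.

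The 6 genes that differed between replicates (limma) numbered 0 with quantile normalization (35 unadjusted), 0 without an intensity trend (54 unadjusted), 0 without a filter on low values (92 unadjusted, 3807 genes), 0 without probe sets of shared sequence (19 unadjusted, 343 genes) and 4 with median centring (38 unadjusted). Leaving out 1 replicate gave 0 to 6, the 0 being without replicate 2 (39 unadjusted). Nrp2 passed in none of these 8 fits, with limma adjusted p from 0.841 to 0.995. No paired analysis was possible because no member probe set is on both chips and the replicate number is itself what the test compares. Vegfc, Flt1, Nrp1 and Nrp2 have sets on each chip, but different ones.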
